A study of Saccharomyces cerevisiae with 12 samples.

Results

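The step from 120 to 180 min of Congo Red treatment was examined in the mRNA abundance of the budding yeast Saccharomyces cerevisiae. Its members were the 2 samples of mRNA at 180 min and at 120 min, of 12 samples in all, and they held 6 of the 36 arrays. Both groups were wild type BY4741 cells grown in rich medium with glucose, in 30 µg/ml of the dye for 180 min and for 120 min. The other times of the series were 0 min, before the dye, and 30, 60 and 240 min in it. Each array had 6144 spots with 1 intensity each, and the arrays of the 2 groups were paired by the replicate number in the names of their files. A spot was tested when at least 2 of its 3 values were above 0 in both groups, which held for 4985 spots. The cells were larger at the later time: the volume factor given with the study was 1.44 at 180 min, against 1.17 at 120 min. No sample at 180 min lacked the dye, so the dye and the time in culture cannot be told apart. The volume of culture collected was adjusted to cell size, per the labels' protocols. The labels do not say that replicates came from separate cultures, so a p-value here rests on array-to-array spread that may be technical in part.

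Congo Red binds chitin in the yeast cell wall and disturbs the assembly of the wall's polymers. Cells answer such damage through the cell wall integrity pathway, in which sensors at the membrane act through a small GTPase and a MAP kinase cascade on transcription factors for wall genes. The amount of an mRNA reflects both how fast it is made and how fast it is degraded, and an mRNA with slow decay follows a change in synthesis with a delay. The files identify a spot by its place on the array, and none of these identifiers matched the gene table used here (0 matches). No gene, pathway or sequence is therefore named, and spots are called by their place.

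Hardly any spot passed the test between these times. Of 4985 spots, 0 rose and 1 fell (limma's moderated test with the replicate number as a block, Benjamini-Hochberg adjusted p under 0.05), which is 0.0201% of the spots tested. An unadjusted p under 0.05 was found for 216 spots, or 4.33%. Without the block the count was 0, with 50 spots under an unadjusted p of 0.05. The middle 50 percent of the spots had log2 changes between -0.15 and 0.14, and 48.9% of all spots lay above 0. Arrays were quantile normalised, and a shift shared by all spots is lost in that step: each change is relative to the typical spot. In bulk samples fewer cells with an mRNA and less of it per cell cannot be told apart.

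The precision limits how far the small count can be read. The 95% interval of a spot's log2 change reached 0.44 to either side of it at the median. It lay wholly inside a 2-fold change either way for 3863 spots, or 77.5%, and inside a 1.5-fold change for 2277 spots, or 45.7%. The standard error depended on brightness. Its median was 0.41 in the 1246 dimmest spots and 0.17 in the 1247 brightest. Changes over 2-fold were measured for 142 spots, of which 78 were upward and 64 downward, and 137 of the 142 lay among the 1246 dimmest. Among the brightest 0 of 1247 spots had a measured change over 2-fold.

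**Figure D1:**
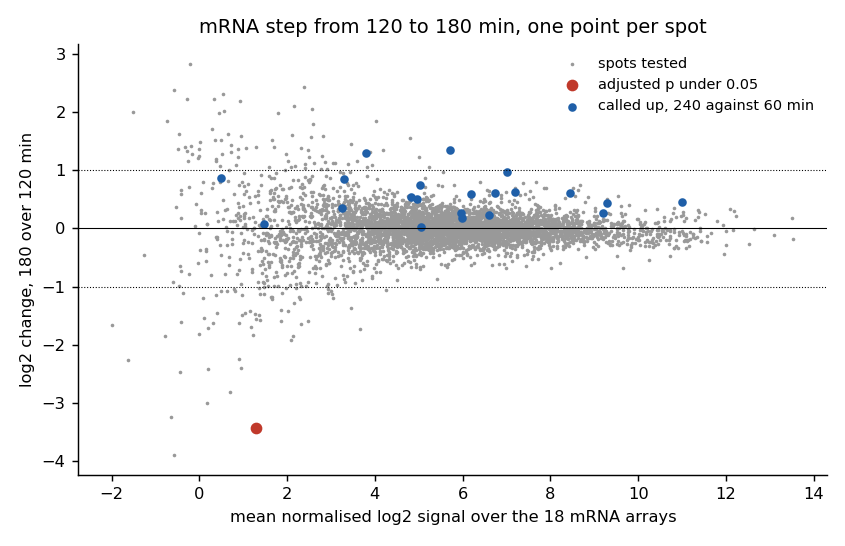
The log2 change in mRNA at 180 over 120 min (vertical axis) against the mean normalised log2 signal over the 18 mRNA arrays (horizontal axis), 1 point per spot, with dotted lines at a 2-fold change. The cloud narrows toward bright spots, the 1 spot past the adjusted threshold (red) lies among the dim ones, and the 21 spots called up at 240 against 60 min (blue) all lie above 0.

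The changes of this step were hardly shared between the replicate pairs. Over the 4714 spots with all 6 values, the changes in pairs 1 and 2 correlated at 0.05 across spots, those in pairs 1 and 3 at -0.05, and those in pairs 2 and 3 at -0.20. Over the 2492 of these spots above the median signal the values were 0.07, -0.05 and -0.21. For comparison, the changes at 240 against 60 min, over 2493 spots above the median signal, correlated at 0.25, 0.07 and 0.51 in the same order of pairs. The other single steps were computed likewise above the median signal. Their values were 0.42, 0.12 and 0.20 at 30 against 0 min and -0.02, 0.28 and -0.12 at 60 against 30 min. They were 0.12, 0.30 and 0.14 at 120 against 60 min and -0.20, 0.07 and -0.14 at 240 against 180 min. Low sharing was thus not particular to this step. Spots of one array share its distortions and are no replicates of each other, so these correlations are a description. The change was above 0 in all 3 pairs at 511 spots and below 0 in all 3 at 602. Together these were 23.6% of the 4714 spots, so the sign differed between pairs at most spots. The arrays at 180 min all lay above those at 120 min at 45 spots, or 0.955% of 4714, and all below them at 66 spots, or 1.4%.

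**Figure D2:**
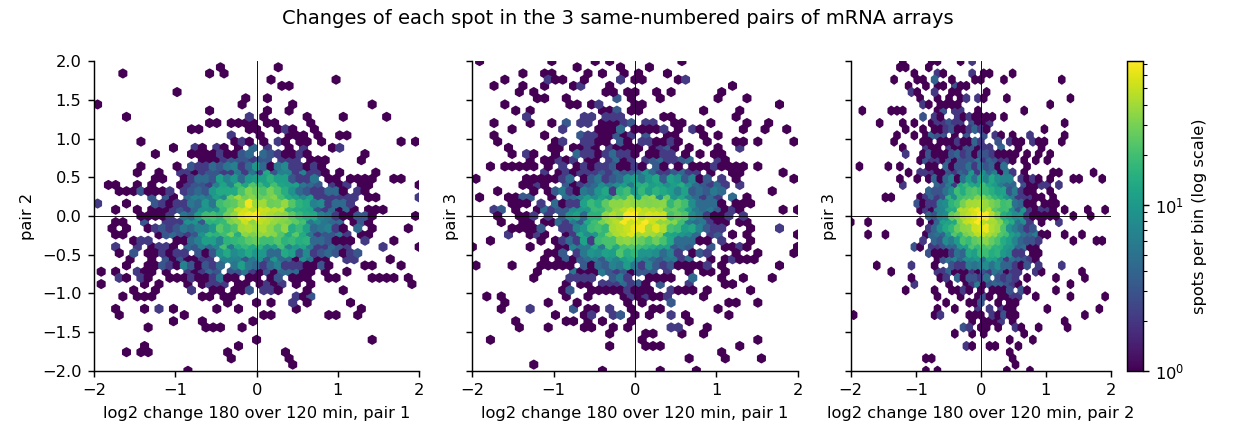
The log2 change at 180 over 120 min of each spot in 1 same-numbered pair of mRNA arrays against that in another, for the 3 combinations of pairs, drawn between -2 and 2 with colour for the number of spots per bin on a log scale. The clouds are round or tilt slightly downward, with correlations of 0.05, -0.05 and -0.20.

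Array brightness moved with the step in 1 pair. Total intensity was 387129, 1309936 and 603921 at 180 min in replicates 1, 2 and 3, against 402873, 1367205 and 996392 at 120 min. The ratio of 180 to 120 min was thus 0.961 and 0.958 in replicates 1 and 2 and 0.606 in replicate 3. Arrays at 180 min listed 979 to 1098 spots at 0, against 1008 to 1107 on arrays at 120 min. Replicates correlated across spots between 0.799 and 0.890 at 180 min and between 0.808 and 0.896 at 120 min, on the normalised log2 scale. Median changes by printing position, the last number of a spot's place, ran from -0.07 to 0.08 over 16 positions. The part of these differences in the results was not tested beyond the alternatives given in the closing section. Printing position leaves out the R and C numbers of a place, and changes on the arrays were not compared by those.

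Of the 1159 spots that were not tested, 985 had fewer than 2 values above 0 in both groups. A further 77 had enough values at 180 min and too few at 120 min, and 97 the reverse. A clean switch was rare: 1 spot was above 0 on all arrays at 180 min and at 0 on all at 120 min, and 2 spots showed the opposite. Of the spots tested, 271 lacked a value on at least 1 of the 6 arrays.

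Because few spots came near the threshold, the 2 falls and the 2 rises with the smallest p are described array by array. They were chosen after their values had been seen, and 0 spots met the naming rule, which asked for the threshold, a mean signal above the dimmest 1246 spots and the same sign in 3 pairs.

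Spot R7 - C6 : 4 was the 1 spot past the threshold. Its normalised log2 signal was -0.83 and -0.45 at 180 min in replicates 2 and 3, with replicate 1 listed at 0 and dropped from the fit, against 1.95, 2.31 and 2.75 at 120 min. The groups did not overlap. The log2 difference was -3.14 in pair 2 and -3.20 in pair 3, and -2.98 in the fit without the block. The fit with the block, which allows for the missing array, gave -3.44 ± 0.39 (SE; limma adjusted p = 0.012), beyond both measured pairs, so the size is uncertain. The spot was dim, at percentile 3.51 of mean signal, with intensities of 1.04 and 0.359 at 180 min against 2.66, 8.54 and 5.56 at 120 min. At 240 min it stood at 0.43, 1.87 and 1.47, above both values at 180 min. The adjusted p was 0.0545 without replicate 3 at 120 min, and 0.998 without replicate 1 throughout. With only the 6 arrays of the step in the fit it was 0.807, and with a trended and robust prior it was 0.233 (limma). On the nascent arrays it was listed at 0 on all 3 at 180 min and on 2 of 3 at 120 min, and the authors' deposited table gave no value for it.

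Spot R7 - C9 : 16 stood at 0.88, 2.10 and 0.80 on the normalised log2 scale at 180 min, against 2.36, 3.14 and 3.07 at 120 min. All 3 arrays at 180 min were below those at 120 min, with log2 differences of -1.48, -1.04 and -2.27 in the 3 pairs, but the change of -1.59 ± 0.27 (SE) did not pass (limma adjusted p = 0.106). Over the course its mean was 2.91, 2.86, 2.72, 2.86, 1.26 and 2.32 at 0, 30, 60, 120, 180 and 240 min, so 180 min was the low point of a level that was otherwise between 2.32 and 2.91. Its nascent signal differed by -0.07 ± 0.58 (SE) between 180 and 120 min (limma adjusted p = 1.00). The authors' deposited table gave an mRNA abundance of 0.201, 0.207, 0.194, 0.149, 0.0616 and 0.0969 at 0, 30, 60, 120, 180 and 240 min. There too 180 min was the lowest, but the values at 120 and 240 min also lay below those at 0, 30 and 60 min. This spot too was dim, at percentile 9.07. Of the 9 fits that left out an array or a replicate number, it passed in 1, without replicate 2 at 180 min (limma adjusted p = 0.0433). The other 8 gave adjusted p between 0.215 and 0.998 (limma), and without replicate 3 at 180 min the change was -1.19.

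Spot R14 - C10 : 16 was the brightest of the 4, at percentile 76.9 of mean signal. It stood at 8.73, 8.52 and 8.07 at 180 min, against 7.63, 7.47 and 7.33 at 120 min on the normalised log2 scale, and the groups did not overlap. The log2 change of 0.96 ± 0.16 (SE) was a near doubling with an adjusted p of 0.106 (limma), and it was positive in 3 of 3 pairs. Over the course its means were 4.94, 5.92, 6.70, 7.48, 8.44 and 8.55 at 0, 30, 60, 120, 180 and 240 min. It rose over both longer spans, by 1.76 at 60 against 0 min (limma adjusted p = 0.000218) and by 1.85 at 240 against 60 min (limma adjusted p = 0.000185). The change was 0.77 at 120 against 60 min and 0.11 at 240 against 180 min. Its nascent signal was 7.79, 8.17 and 8.92 at 180 min, against 6.90, 7.74 and 7.56 at 120 min, and the step did not pass (0.89 ± 0.49 SE on the log2 scale, limma adjusted p = 1.00). The difference between the mRNA and the nascent step was 0.07 ± 0.33 (SE; limma adjusted p = 1.00). That difference was fitted with a block for assay and replicate number, and the nascent step without a block. The SEs of the difference and of the nascent step thus come from different fits. In the authors' deposited table its mRNA abundance was 0.729, 1.72, 3.02, 3.80, 6.49 and 6.48 at 0, 30, 60, 120, 180 and 240 min. At 180 against 120 min its synthesis rate was 0.120 against 0.0995.

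Spot R9 - C16 : 2 stood at 3.68 and 3.81 at 180 min, against 1.70 and 0.90 at 120 min, in replicates 1 and 2. Replicate 3 was listed at 0 at both times and at every other time, so the value rests on 2 pairs. The log2 change of 2.44 ± 0.26 (SE) did not pass (limma adjusted p = 0.215). The spot was dim, at percentile 8.69, with intensities of 7.12 and 26.8 at 180 min against 2.16 and 2.80 at 120 min. Its nascent signal was 5.54, 5.83 and 5.86 at 180 min, against 5.41, 5.85 and 5.60 at 120 min, and these overlapped.

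**Figure D3:**
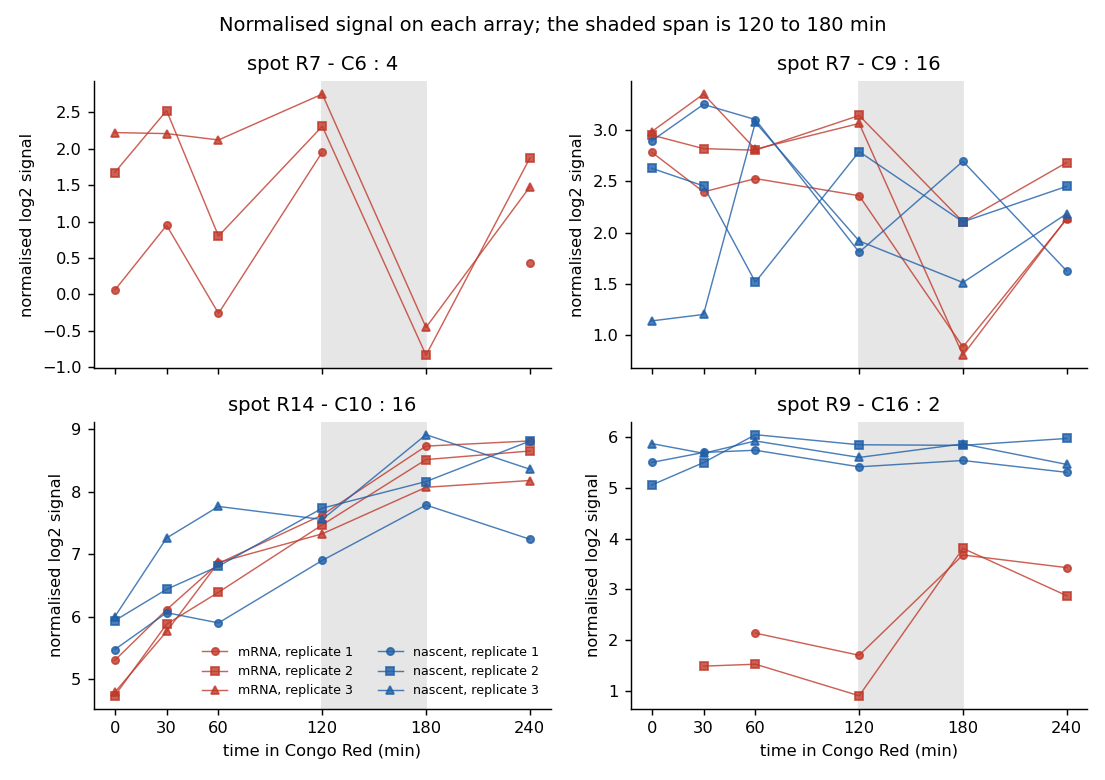
Normalised log2 signal (vertical axis) on each mRNA array (red) and nascent array (blue) against the time in Congo Red in minutes, for the 2 falls and the 2 rises with the smallest p, with 1 symbol per replicate and the span from 120 to 180 min shaded. Lines are broken where an array was listed at 0. R7 - C6 : 4 has no nascent points because it was not in the nascent fit. The mRNA means of R14 - C10 : 16 go up from 4.94 to 8.55 over the 6 times, while R7 - C6 : 4 and R7 - C9 : 16 dip at 180 min and stand higher again at 240 min.

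It was then asked what this step contributed to changes seen over longer spans. The spots for this were called from arrays other than those at 120 and 180 min, although those 2 groups entered the same normalisation and the same estimate of spread. No test is given, since the lists were chosen with results known. At 240 against 60 min 21 spots had risen and 4 had fallen (limma with the block, adjusted p under 0.05; 0.422% and 0.0804% of 4976, 0.502% in all). Over those 21 risers the step from 120 to 180 min had a median of 0.55 on the log2 scale, with a range of 0.03 to 1.35, and all 21 were above 0 where 48.9% of all spots were. Each pair showed it, with medians of 0.59, 0.44 and 0.48 in pairs 1, 2 and 3. The same spots had median changes of 0.59 at 120 against 60 min and 0.21 at 240 against 180 min. Both of those use an array group that chose the list. None of the 21 passed the threshold in the step alone (0 of 21), where 0.0201% of all spots did. An unadjusted p under 0.05 was found for 14 of the 21, where 4.33% of all spots had one. Of the 21 spots 5 lay among the 1246 dimmest, and the median percentile of signal of the 21 was 57.8.

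The nascent signal of these 21 spots had a median log2 change of 0.15 between 180 and 120 min, with 15 of 21 above 0 where 49.0% of all spots were. An mRNA ratio of 180 to 120 min was listed for 20 of the 21 in the authors' deposited table, with a median of 1.32 and 18 above 1, where all 4577 spots had a median of 0.895 and 27.6% above 1. Their synthesis rate in the authors' deposited table had a median ratio of 0.789, with 4 of 21 above 1, where all 4818 spots had a median of 0.748 and 5.48% above 1. The deposited values combine replicates of the same samples as the arrays, so they are no independent support. The 4 fallers had a median step of -0.24, with 3 of 4 below 0 where 51.1% of all spots were. Their pair medians were -0.01, -0.10 and -0.53, so the value came mostly from pair 3.

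The spots called early in the course overlap with these lists. At 60 against 0 min 78 spots had risen and 27 had fallen (limma with the block, 1.57% and 0.544% of 4967, 2.11% in all). Of the late risers 7 were also early risers, which is 33.3% of the 21 and 8.97% of the 78, and 1 was among the 27 early fallers. Both lists use the arrays at 60 min, with opposite sign, so their overlap is in part fixed by the choice. An error at 60 min works against a spot rising in both, and toward a spot falling early and rising late. The 78 early risers had a median change of 0.14 in the step, with 59 above 0 where 48.9% of all spots were. Their pair medians were 0.25, 0.08 and 0.07. Without the 7 shared spots the medians of the step were 0.50 for 14 late risers and 0.14 for 71 early risers, and the difference between the lists was not tested. For all 78 early risers the medians in the earlier steps were 0.64 at 30 against 0 min, 0.38 at 60 against 30 min and 0.23 at 120 against 60 min. In the later step, at 240 against 180 min, their median was -0.12. The first 3 of these medians use the arrays at 0 or 60 min that chose the list, so their order is in part fixed by the choice. The nascent signal of the early risers in the step of interest had a median change of 0.00. It was above 0 for 40 of 77, near the 49% of all spots. The 27 early fallers had a median step of -0.12, with pair medians of -0.08, -0.17 and -0.09. Among them 10 lay above 0 and 17 below, where 48.9% and 51.1% of all spots did. Their nascent median was 0.07, with 18 of 27 above 0 where 49% of all spots were.

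**Figure D4:**
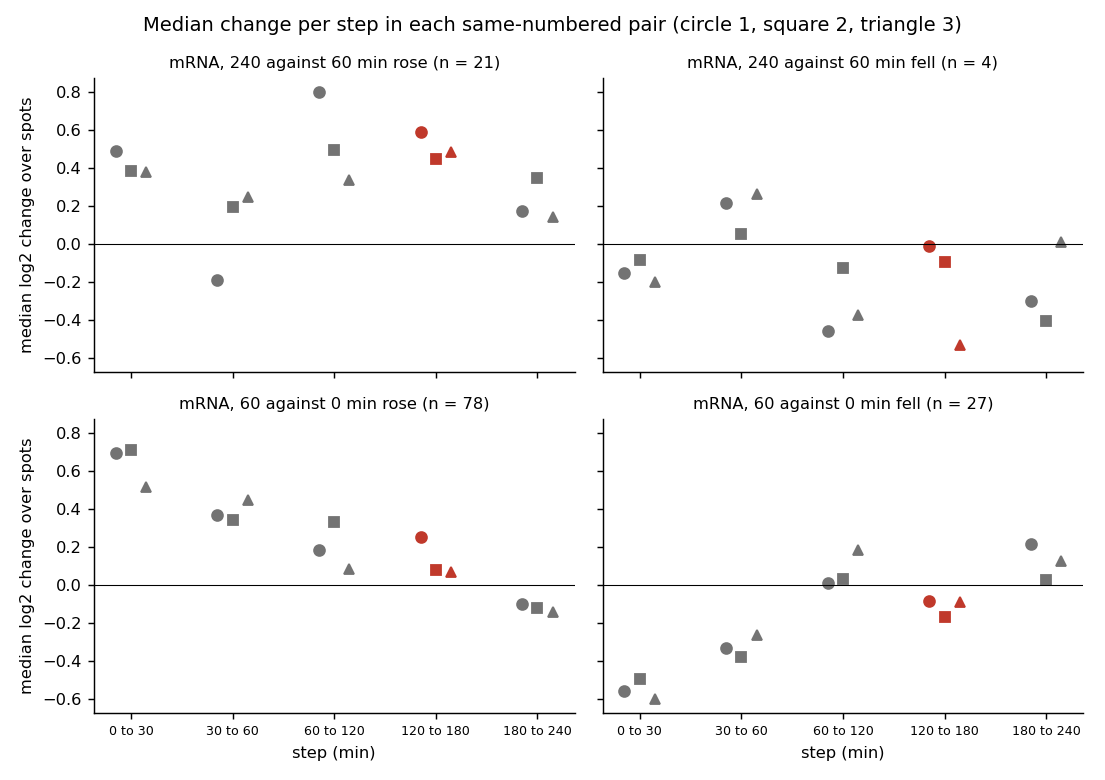
Median log2 change over the spots of a list (vertical axis) in each step of the time course (horizontal axis, in minutes), with 1 symbol per same-numbered pair of arrays and the step from 120 to 180 min in red, for the spots called at 240 against 60 min and at 60 against 0 min. The 21 late risers have red symbols between 0.44 and 0.59, and the 78 early risers between 0.07 and 0.25.

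The neighbouring steps also had few calls. In the same fit 1 spot rose and 1 fell at 120 against 60 min, of 4976 tested (0.0402% in all), with 300 under an unadjusted p of 0.05. At 240 against 180 min 0 rose and 0 fell of 4985, with 140 under an unadjusted p of 0.05. Both share arrays with the step from 120 to 180 min. At 30 against 0 min, a step that shares none, the fit had 12 rises and 0 falls of 4970 (0.241%). The step of 60 against 30 min, which shares none either, had 0 rises and 1 fall of 4970 (0.0201%). The difference between the step from 120 to 180 min and the one from 60 to 120 min was itself tested, and it passed at 3 of 4976 spots, or 0.0603%, with 1 higher and 2 lower and 148 under an unadjusted p of 0.05 (limma). The 3 were dim, at percentiles 3.51, 4.21 and 8.39, and the lowest was R7 - C6 : 4, with -3.44 in the step against 1.45 in the step before. That count was 0 in 9 of the 12 fits that left out an array or a replicate number, and 0 without the block.

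Separate arrays carried nascent RNA from genomic run-on, a method that lets polymerases already on genes extend their RNA with a labelled nucleotide. Between 180 and 120 min 0 of 5173 spots passed (0%), with 130 under an unadjusted p of 0.05 in limma's test without the block and a count of 0 with it. Over the longer span of 240 against 60 min 2 of 5165 spots passed (0.0387%), 1 up and 1 down (0.0194% each). Same-numbered nascent arrays did not all deviate together, so the block was an alternative there. The median standard error was 0.25, against 0.20 for mRNA with the block. Across the 4898 spots tested in both assays, the mRNA step and the nascent step correlated at Pearson's r of 0.17 and Spearman's rho of 0.21, a description across spots. The test of the difference between the 2 steps passed at 1 of 4898 spots (0.0204%), R9 - C16 : 2, with 117 under an unadjusted p of 0.05 (limma with a block for assay and replicate number). The count was 0 without the block and 0 in 12 of the 15 fits that left out an array or a replicate number.

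The authors' deposited table, in which replicates had been combined and which has no error, gives levels, which normalised arrays cannot. Its unit is not stated. Mean mRNA abundance over 4577 spots with both values was 3.23 at 180 min, against 3.52 at 120 min, a ratio of 0.919. The median of the ratio per spot was 0.895, the middle 50 percent lay between 0.792 and 1.01, and 72.3% of the spots were lower at 180 min. More than a 2-fold rise was listed for 35 spots and more than a 2-fold fall for 65. Across 4577 spots the log2 ratio in the authors' deposited table correlated at 0.56 with the change measured on the arrays.

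In the same table as deposited, mean synthesis rate over 4818 spots was 0.0753 at 180 min, against 0.102 at 120 min, a ratio of 0.741, and 94.2% of the spots were lower. The median ratio per spot was 0.748, with the middle 50 percent between 0.664 and 0.836. These ratios differed by place on the array: spots at R1 mostly had lower rate ratios than spots at R13 and R14. The mRNA ratios differed the same way, less strongly. How much of the spread between spots goes with place was not tested. Of 4542 spots with both ratios in the authors' deposited table, 3138 or 69.1% were lower in both measures, 1155 were higher in mRNA and lower in synthesis rate, and 95 were higher in both. The mRNA ratio divided by the rate ratio, both as deposited, had a median of 1.20 and was above 1 for 77.1% of the spots. With the volume factors on the rate alone, which would put the measures on one scale if mRNA abundance carried no volume term, the quotient had a median of 0.977 and was above 1 for 45.5%. Which measure had the lower ratio thus depends on that unknown. Across spots the 2 log2 ratios correlated at 0.11.

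**Figure D5:**
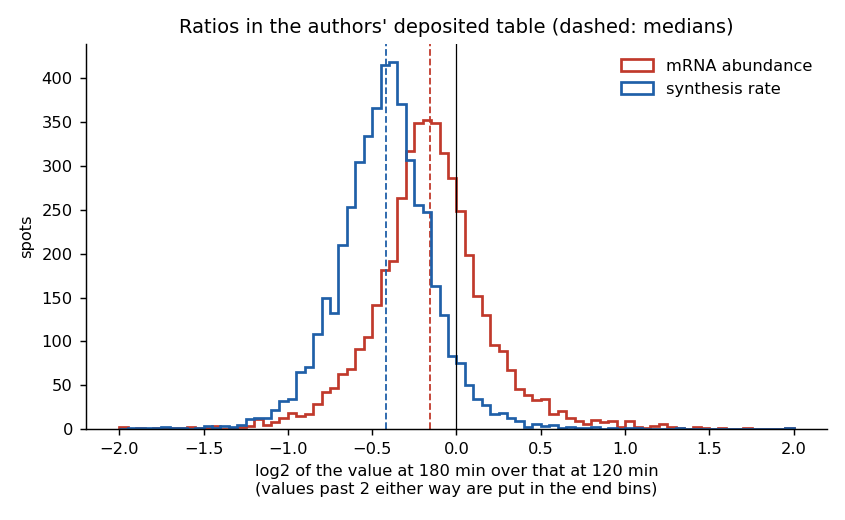
Number of spots (vertical axis) by the log2 ratio of the value at 180 min to that at 120 min (horizontal axis) in the authors' deposited table, for mRNA abundance (red) and synthesis rate (blue), with dashed lines at the medians. The medians correspond to ratios of 0.895 and 0.748, and both lie below no change.

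Cell volume bears on these ratios, since the volume factor was 1.23 times higher at 180 than at 120 min. Per the series' design text, synthesis rate had been normalised to volume, and whether mRNA abundance had been is not given in the sources used here. Multiplied by the volume factors, the median ratio of 180 to 120 min was 1.10 for mRNA abundance and 0.920 for synthesis rate, and the ratios of the means were 1.13 and 0.912. The direction for mRNA abundance thus depends on whether a volume term is applied, while the median ratio of synthesis rate was below 1 on both scales. With the factors on the rate alone the medians were 0.895 for mRNA abundance and 0.920 for synthesis rate, the reverse of their order as deposited.

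As deposited, with no volume factor applied here, the median ratio of each measure was below 1 at every level of abundance. When spots were put into 10 bins of equal size by their level at 60 min, a column the ratio does not use, the median mRNA ratio of 180 to 120 min was 0.924 in the lowest bin and 0.886 in the highest, and the 10 medians lay between 0.881 and 0.924. The middle 50 percent ran from 0.731 to 1.21 in the lowest bin and from 0.795 to 0.993 in the highest. The median rate ratio lay between 0.727 and 0.764 in the 10 bins. The highest bin held 63.7% of the total mRNA abundance at 180 min, against 62.9% at 120 min, in the authors' deposited table.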

How the data were processed

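Per the labels' protocols, mRNA was reverse transcribed with an oligo-dT primer and a radioactive nucleotide, and nascent RNA was labelled by run-on. The deposited array files hold 1 intensity per spot, with no background, flag or gene name; the sources used here do not give the image software. The authors' deposited table holds 1 signal per spot, time and measure, with replicates combined; all of its 12 columns were used.

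An intensity of 0 was taken as missing, and others went to log2 without a pseudocount. The 18 arrays of an assay were quantile normalised after the filter and fitted with limma 3.58.1 (R 4.3.3), with time as a factor and, for mRNA, the replicate number of the array files as a block. That pairing comes from the file numbering and the data: all 45 same-numbered mRNA pairs had deviations correlated at 0.613 to 0.846, and 13 of 45 nascent pairs were at or below 0.1. The median residual SD was 0.252 with the block and 0.446 without. The threshold was a Benjamini-Hochberg adjusted p of 0.05. No 2 arrays were identical (0 of 630 pairs). Members, lists and tests were chosen with earlier results of these data known. The gene lists, the strain markers and the naming of genes were not used, since spots have no gene. The fit was tested on simulated data. Tables and plots used Python 3.11.15, pandas 2.3.3, numpy 2.4.6 and matplotlib 3.10.9.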

Additional observations from a re-analysis of the deposited data

Results flagged for a closer look

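For spot R9 - C16 : 2 the test of the difference between the assays passed: its mRNA step minus its nascent step was 2.31 ± 0.33 (SE; limma adjusted p = 0.0171), with an mRNA change of 2.44 on 2 pairs and a nascent change of 0.13. The call was not stable. The test passed at 0 spots without the block and at 0 in 12 of the 15 fits that left out an array or a replicate number, and at 2 spots with array weights.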

How the results depend on the processing

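The count of 1 spot in the mRNA step was 1 with arrays scaled to a common median, with cyclic loess, with printing positions centred, with array weights and with 2 of 3 values asked for in all groups. It was 0 without the replicate block, with only the 6 arrays compared (with the block, and without it, which was added after the data were seen), with 3 of 3 values above 0, with the dimmest spots left out (both of which remove the spot), and with a trended and robust prior. It ran from 0 to 1 when an array or a replicate number was left out, being 0 without replicate 3 at 120 min, replicate 3 at 180 min or any replicate number. R7 - C6 : 4 was not tested without replicate 2 or 3 at 180 min, or without replicate number 2 or 3 throughout. Too few of its values at 180 min were then above 0. Without replicate 2 at 180 min the 1 spot called was R7 - C9 : 16. The cause of the other lost calls was not tested. The 3 spots whose step differed from the one before became 0 without the replicate block and 0 to 2 when arrays or replicate numbers were left out. The difference between the mRNA and nascent steps passed at 0 spots without the replicate block, at 2 with array weights and at 0 to 1 in the leave-one-out fits, with 0 in 12 of 15. The count of 0 in the nascent step was 0 in all alternatives run, the replicate block included, and that at 240 against 180 min likewise. The median step of the late risers ran from 0.483 to 0.587 over the 20 alternatives of the mRNA step, which tested 16 to 21 of these spots. In 4 of the 20 at least 1 spot, and at most 2, lay below 0. With the volume factors the table's median ratio was 1.10 for mRNA abundance and 0.920 for synthesis rate, and with them on the rate alone, an alternative added after the data were seen, the quotient of the ratios was 0.977 in place of 1.20. Dim spots, with no background value deposited, limit the sizes of changes.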
